A study of Mus musculus with 11 samples.

Results

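The cell cycle and proliferation genes are a list of 40 genes of DNA replication, the G1/S transition and mitosis. They were chosen by name, and all 40 were found by symbol among the 55487 gene identifiers of an RNA-seq table from mouse spinal cord and mouse fetal fibroblasts (MEF), primary connective tissue cells grown in culture. All material came from C57BL/6 mice, either wild-type or carrying the Morc2a p.S87L change on 1 allele. Morc2a encodes an ATPase of chromatin silencing, and the change puts leucine in place of a serine. There were 3 libraries of wild-type spinal cord, 3 of S87L spinal cord, 3 of wild-type MEF and 2 of S87L MEF. S87L below means the heterozygous genotype, and no group carries any other stated allele or treatment. The age and sex of the animals and the passage of the cultures are not given. Nothing says that libraries came from separate animals or fetuses, so p-values measure only the spread between libraries.

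Cells enter the cycle when D-type cyclins with their kinases CDK4 and CDK6, and then cyclin E with CDK2, phosphorylate the retinoblastoma protein and free E2F factors, which switch on replication genes. Inhibitors of the INK4 family bind CDK4 and CDK6 and hold this step back. Licensing factors load the MCM helicase on origins before S phase, and cyclins A and B with CDK1, the Aurora and Polo kinases and the spindle checkpoint carry cells through mitosis. In the spinal cord neurons and mature oligodendrocytes have left the cycle, while fibroblasts in culture can divide until they stop in senescence, a state in which the Cdkn2a products accumulate.

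RefSeq promoter windows (build GRCm38.p6, 250 bases before to 50 after a start) were found for 33 members, in 37 windows. None was found for Ccna2, Aurkb, Ccnd1, Ccnd2, Ccne2, Mcm4 or Foxm1. Both strands were searched for TTTGAA, the letters of the cell cycle genes homology region (CHR) bound by the DREAM and MuvB complexes, for CCAAT, the letters bound by NF-Y, and for the E2F letters TTCCCGC and TTGGCGC. The reverse of TTGGCGC and CCAAT share letters and can overlap. The upstream 150 bases of 5 members are shown as examples of the replication type, the mitosis type and the Cdkn2a locus. Each is written on the strand of the gene, 5′ to 3′, and capitals mark these letters on either strand. Mcm6, a subunit of the replicative helicase, is at chr1:128359706-128359855 on the minus strand and holds E2F and CCAAT letters.
Mcm6: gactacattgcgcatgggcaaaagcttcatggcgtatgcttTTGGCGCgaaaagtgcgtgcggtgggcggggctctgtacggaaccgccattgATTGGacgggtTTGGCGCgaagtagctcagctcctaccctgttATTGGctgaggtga
Cdk1, the kinase of mitotic entry, is at chr10:69352913-69353062 on the minus strand and holds CHR and CCAAT letters. Cdc20, the activator of the anaphase-promoting complex, is at chr4:118437344-118437493 on the minus strand and holds the same kinds. The full Cdk1 window also holds E2F letters upstream of the printed bases. Mki67, the gene of the Ki-67 chromosome coat protein, is at chr7:135716380-135716529 on the minus strand and holds all 3 kinds.
Cdk1: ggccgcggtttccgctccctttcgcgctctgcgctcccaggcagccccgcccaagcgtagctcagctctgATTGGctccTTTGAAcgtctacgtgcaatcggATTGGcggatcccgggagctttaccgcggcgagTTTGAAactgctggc
Cdc20: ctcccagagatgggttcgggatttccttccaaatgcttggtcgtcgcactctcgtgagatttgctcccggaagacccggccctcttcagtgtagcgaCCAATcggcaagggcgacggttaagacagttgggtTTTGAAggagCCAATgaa
Mki67: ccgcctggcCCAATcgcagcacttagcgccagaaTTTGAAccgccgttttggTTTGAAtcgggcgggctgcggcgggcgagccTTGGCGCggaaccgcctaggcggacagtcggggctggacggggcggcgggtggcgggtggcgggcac
Cdkn2a has a start for p19Arf at chr4:89294620-89294769 and a later start for p16Ink4a at chr4:89282193-89282342, both on the minus strand. In the printed 150 bases the first holds E2F letters and the second holds none of the letters searched. The full window of the second holds CCAAT letters after the start.
Cdkn2a Arf start: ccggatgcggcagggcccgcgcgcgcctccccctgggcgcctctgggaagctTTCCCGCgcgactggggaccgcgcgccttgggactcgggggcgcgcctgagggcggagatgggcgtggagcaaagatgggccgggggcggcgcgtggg
Cdkn2a Ink4a start: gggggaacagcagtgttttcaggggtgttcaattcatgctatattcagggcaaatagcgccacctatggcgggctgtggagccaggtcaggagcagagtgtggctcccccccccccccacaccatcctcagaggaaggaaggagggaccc

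CHR letters stood in 10 of 14 windows of the cyclin, kinase, checkpoint and chromosome members of mitosis (71.4%), in 1 of 23 windows of the other members (4.35%, Mcm2) and in 17.9% of all 32851 windows. CCAAT letters stood in 13 of the 14 mitosis windows (92.9%), in 13 of the 23 windows of the other members (56.5%) and in 37.4% of all windows. E2F letters stood in 11 of the 23 windows of the other members (47.8%), in 3 of the 14 mitosis windows (21.4%) and in 6.81% of all windows. These matches are letters in a window and say nothing of binding in these cells.

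The targeted gene, Morc2a, had 5.61, 5.66 and 5.71 FPKM (fragments per kilobase of gene, scaled to the read total) in wild-type cord and 4.71, 4.93 and 4.95 in S87L cord. It had 18.5, 18.8 and 18.3 FPKM in wild-type MEF and 16.4 in both S87L MEF libraries. A total over both alleles does not check the genotype. Whole reads recovered from the FPKM steps came to 15.35 to 18.97 M per wild-type cord library and 19.4 to 23.53 M per S87L cord library. Depth in cord thus did not overlap between genotypes. MEF libraries had 12.08 to 15.05 M. Each pair of libraries of 1 group differed beyond counting (chi-square over its degrees of freedom, 1.26 to 4.67). The defining markers fitted the labels: neuron markers summed to 1014 to 1046 FPKM in cord and to 0.455 to 0.705 in MEF, and fibroblast markers to 32.9 to 57.7 in cord and to 3380 to 3930 in MEF.

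The members were scarce in spinal cord and abundant in MEF. Their median level was 0.592 FPKM in wild-type cord and 21.7 in wild-type MEF, and 19 of 40 lay below 0.5 FPKM in wild-type cord against 0 in wild-type MEF. The 40 genes summed to 87.6 to 92.5 FPKM per library in wild-type cord, 89.8 to 92.6 in S87L cord, 1191 to 1199 in wild-type MEF and 1170 to 1181 in S87L MEF. In bulk RNA, fewer cells of a type and less RNA per cell cannot be told apart. Tested with limma on log2(FPKM + 0.5), with Benjamini-Hochberg adjustment over all genes tested and a call at an adjusted p under 0.05, 40 of 40 members were higher in wild-type MEF than in wild-type cord. Over all 15962 genes tested, 87.6% were called, 40.3% higher and 47.4% lower. All 40 members also lay higher without overlap, against 40.7% of all genes tested. The members' median difference was 4.06 on that log2 scale, against -0.12 over all genes. The fit needed a mean of 0.5 FPKM, which the 19 members below 0.5 FPKM in wild-type cord reached only through MEF. These 19 could thus only come out higher, and they are part of the counts and the median. The 21 members at or above 0.5 FPKM in wild-type cord could come out in either direction, and all were called higher. Those under 1 FPKM there were Cdc20, Cdt1, Rrm2, Bub1b, Cdkn2c and Aurka, with means of 0.569 to 0.909. They had little room to be lower in MEF and still reach the mean, so their direction was largely set by the filter. From 1 FPKM in cord upward the mean was reached at any MEF level. Quantile normalization moved the median of all genes to 0.15 and that of the members to 4.42, and the calls from 6425 higher and 7563 lower to 7650 and 6428. Cell type and culture cannot be told apart in this comparison.

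**Figure D1:**
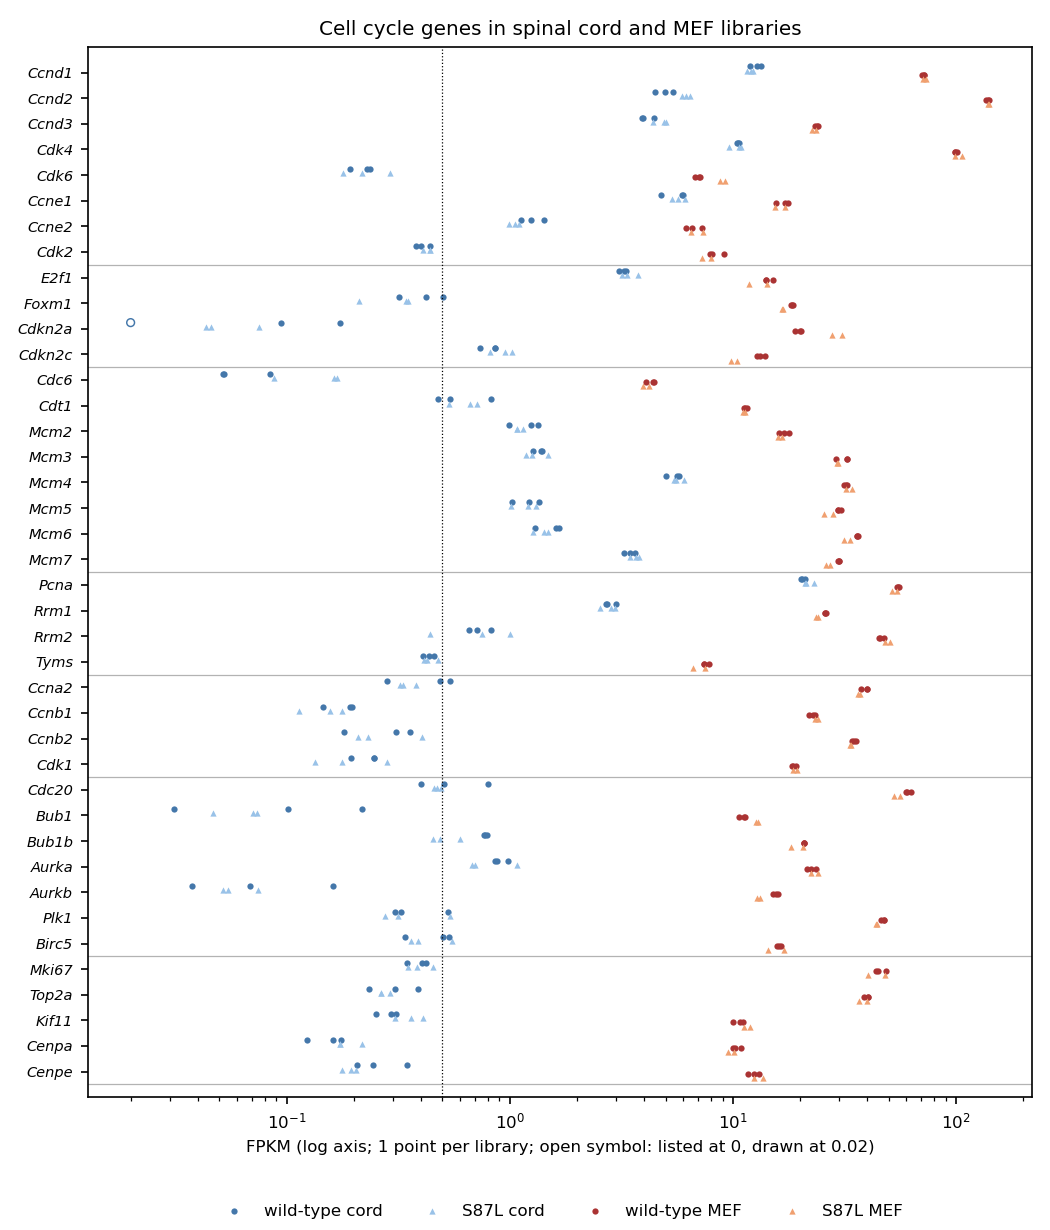
FPKM of each of the 40 cell cycle genes in each of the 11 libraries (log axis, 1 symbol per library), ordered by role, with thin lines between roles. The dotted line stands at 0.5 FPKM, the mean level a gene needed to be tested; the MEF libraries lie to the right of the cord libraries for every gene.

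By role medians, the ratio of MEF to cord was smallest for G1 genes and largest for the S and M phase cyclins and the mitotic kinases. Pcna, the sliding clamp of replication and repair, had 20.2 to 21.1 FPKM in wild-type cord and 54.5 to 55.9 in wild-type MEF, a ratio of means of 2.68, the smallest of the 40. Ccne1, the cyclin partner of CDK2, had 4.75 to 6.00 FPKM in cord and 15.6 to 17.7 in MEF, a ratio of 3.03. Pcna reads may be shared with its processed pseudogenes. The 8 G1 cyclins and kinases had a median ratio of 7.64, the 4 transcription factors and CDK inhibitors of 30.3, the 8 licensing and helicase genes of 21 and the 4 genes of S phase synthesis of 13.3. The 4 S and M phase cyclin and Cdk1 genes had a median ratio of 107, the 7 mitotic kinase and checkpoint genes of 95.1 and the 5 chromosome, kinetochore and spindle genes of 67.9. The transcription factors and inhibitors spread from 4.49 (E2f1) to 223 (Cdkn2a). In the same order the ranges were 3.03 to 31.9, 5.89 to 68.7 and 2.68 to 63.0 for the G1, licensing and synthesis genes, and 82.2 to 128, 24.8 to 174 and 37.4 to 128 for the 3 roles of mitosis. Single genes thus cross the order of the medians.

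Aurkb, the kinase of the chromosomal passenger complex, had 0.0375, 0.0688 and 0.162 FPKM in wild-type cord and 15.6, 15.1 and 15.9 in wild-type MEF, a ratio of 174. Cdkn2a, which encodes the CDK4/6 inhibitor p16Ink4a and the p53 activator p19Arf, had 0.0942, 0.173 and 0 FPKM in wild-type cord, from 2, 3 and 0 reads. In wild-type MEF it had 20.3, 19.1 and 20.1, a ratio of 223, the largest of the 40. These cord levels rest on few reads, so the ratios are loose. In cord, only Ccnd1, Cdk4 and Pcna had a mean of at least 10 FPKM, in both genotypes. Ccnd1 encodes a D-type cyclin and had 12 to 13.4 FPKM in wild-type cord, and Cdk4 encodes its kinase and had 10.4 to 10.7. In wild-type MEF, Ccnd2 had 136 to 141 FPKM and Cdk4 had 99.3 to 101, the highest levels among the members. Cdc6, which loads the helicase, had 4.10 to 4.43 FPKM, the lowest level in wild-type MEF.

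The 11 members with CHR letters in a window had MEF to cord ratios of 14.2 (Mcm2) to 128 (Top2a), with a median of 82.2. The 22 with a window but no CHR letters had ratios of 2.68 to 223, with a median of 22.0. The ranges overlap, and the roles of the 2 sets differ.

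**Figure D2:**
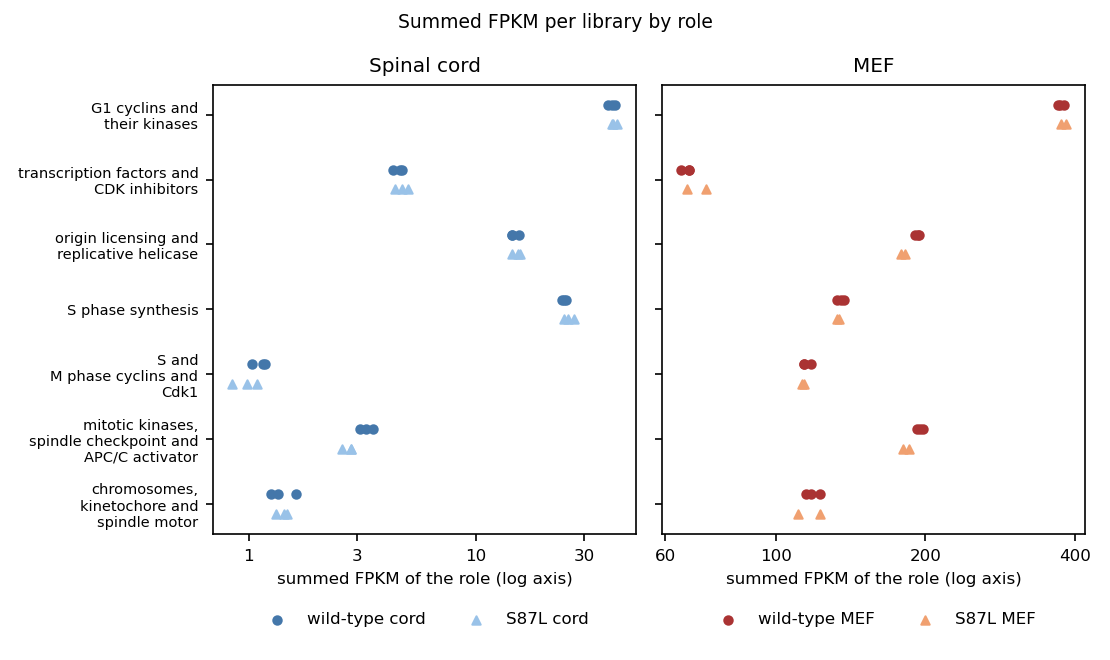
FPKM summed over the genes of each role, 1 symbol per library, with cord libraries on the left and MEF libraries on the right (log axes with different ranges). Circles are wild-type and triangles S87L; the MEF sums of the licensing and helicase genes and of the mitotic kinases are lower in both S87L libraries than in the 3 wild-type libraries.

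In MEF, 5 of the 40 members differed between genotypes. Cdkn2a, Cdk6 and Bub1 were higher in S87L, and Cdkn2c and Aurkb were lower. The other 35, among them the proliferation markers Mki67, Top2a and Pcna, were not called. The 5 are 12.5% of the members, and 11.2% of all 13773 genes tested were called, with 4.91% higher and 6.32% lower, so the count of calls stands near that of genes at large. Every member was tested, with 254 to 18383 reads per library.

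Cdkn2a had 20.3, 19.1 and 20.1 FPKM in wild-type MEF and 27.9 and 30.8 in S87L MEF. Both S87L libraries stood above all wild-type ones. The means were 19.8 ± 0.655 (SD, n = 3) and 29.3 ± 2.03 (SD, n = 2), a difference of 0.55 (SE 0.06) on the log2(FPKM + 0.5) scale with a limma adjusted p of 0.00316. It was called without each library in turn, with adjusted p of 0.0103 to 0.0193. With the replicate number added to the fit as a block, the call was lost (limma adjusted p = 0.0569). The gene lies at chr4:89274471-89294653 on the minus strand, and its total does not separate the p16Ink4a and p19Arf transcripts that start at the promoters printed above.

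Cdkn2c, which encodes the INK4 inhibitor p18Ink4c of the same kinases, went the other way. It had 13.3, 12.9 and 14 FPKM in wild-type MEF and 9.82 and 10.4 in S87L MEF, without overlap. The means were 13.4 ± 0.535 (SD, n = 3) and 10.1 ± 0.414 (SD, n = 2), and it fell by 0.39 on the log2(FPKM + 0.5) scale (SE 0.05, limma adjusted p = 0.00902). The call held without each library in turn, with adjusted p of 0.0188 to 0.0398, but was lost with a replicate block (limma adjusted p = 0.0962). Cdkn2c lies at chr4:109660876-109667189, on the same chromosome as Cdkn2a but far from it.

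Cdk6, a kinase that D-type cyclins activate and INK4 proteins inhibit, had 7.09, 7.14 and 6.79 FPKM in wild-type MEF and 9.28 and 8.80 in S87L MEF. The groups did not overlap, with means of 7 ± 0.187 (SD, n = 3) and 9.04 ± 0.341 (SD, n = 2). The difference was 0.35 (SE 0.05, limma adjusted p = 0.012). The limma adjusted p was 0.0532 without wild-type MEF replicate 3 and 0.114 with a replicate block. Its partner kinase gene Cdk4 had 99.3 to 101 FPKM in wild-type MEF and 99.5 and 107 in S87L MEF, a difference of 0.05 with a 95% interval of -0.06 to 0.15. The D-type cyclin genes differed by 0.01 (Ccnd1), 0.01 (Ccnd2) and -0.04 (Ccnd3), and none was called.

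Bub1 and Aurkb, whose kinases act at the centromere, had smaller differences. Bub1, a kinase of the spindle checkpoint, had 11.4, 11.2 and 10.7 FPKM in wild-type MEF and 12.7 and 13 in S87L MEF. It was higher by 0.20 (SE 0.05, limma adjusted p = 0.0444), with no overlap. Leaving out any single library of the 5 ended this call, with adjusted p of 0.0883 to 0.135. Aurkb had 15.6, 15.1 and 15.9 FPKM in wild-type MEF and 13.3 and 12.8 in S87L MEF, again with no overlap, and fell by 0.25 (SE 0.05, limma adjusted p = 0.0228). That call was lost without any 1 of the 3 wild-type MEF libraries or without S87L MEF replicate 2, with adjusted p of up to 0.0874. With no filter on low values, without limma's trend and robust settings, or with a replicate block, neither was called. Over the 9 alternatives limma adjusted p was 0.0175 to 0.249 for Bub1 and 0.0079 to 0.169 for Aurkb. The passenger complex partner Birc5, which encodes survivin, had 15.8 to 16.5 FPKM in wild-type and 14.4 and 16.9 in S87L MEF and was not called (-0.05, 95% interval -0.22 to 0.12). Incenp, a gene of the same complex from the other lists, was called lower in MEF. Without any 1 library other than S87L MEF replicate 2 the Incenp call was lost, with limma adjusted p of up to 0.0955. It was also lost with no filter on low values, without limma's trend and robust settings and with a replicate block.

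**Figure D3:**
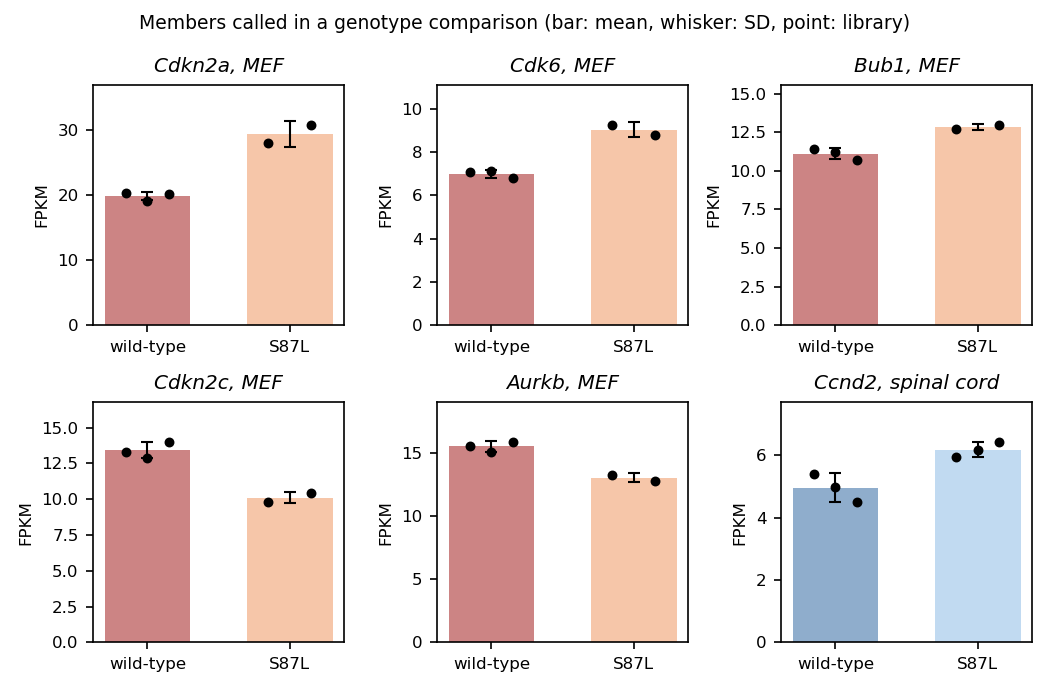
FPKM of the 6 members called between genotypes, 5 in MEF and Ccnd2 in spinal cord. Bars are means, whiskers are SD and points are single libraries; in each panel the S87L and wild-type points do not overlap.

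The remaining differences in MEF were small. Over the 40, 26 differences were negative and 14 positive, with a median of -0.05 against -0.01 over all genes. At an unadjusted limma p under 0.05 there were 12 members (30%), against 27.9% of all genes. Values of 12 members (30%) lay below the wild-type range without overlap and of 5 (12.5%) above it, against 25% and 20.8% of all genes tested. Of the 7 role sums, 2 lay lower in S87L MEF without overlap, and the other 5 overlapped or touched. The licensing and helicase genes summed to 190.4 to 194 FPKM in wild-type MEF and 179 to 182 in S87L MEF, and the mitotic kinase and checkpoint genes to 192 to 198 and 180.4 to 185. Within the first group, Mcm6 had 36.6, 35.9 and 36.0 FPKM in wild-type and 31.6 and 33.6 in S87L MEF, a difference of -0.15 (limma adjusted p = 0.0742). Mcm7 had 29.5, 29.9 and 29.9 against 26.2 and 27.3 FPKM, a difference of -0.15 (limma adjusted p = 0.0625). Mcm5 had 30.6, 29.8 and 29.6 against 25.6 and 28.1 FPKM, a difference of -0.16 (limma adjusted p = 0.101). Mcm5, Mcm6 and Mcm7 were not called here, but all 3 were called lower by limma-voom on recovered reads and in the limma fit without S87L MEF replicate 2. Mcm2, Mcm3, Mcm4, Cdc6 and Cdt1 were not called, with differences of -0.09 to 0.04. Mcm7 shares sequence on the opposite strand with Cops6 (46.8 FPKM in wild-type and 44.6 in S87L MEF), and whether counting used the strand is not given.

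Cdc20 had 59.8, 60.5 and 63.2 FPKM in wild-type MEF and 52.9 and 56.1 in S87L MEF, lower without overlap (-0.16, limma adjusted p = 0.0685). It overlaps Elovl1 on the opposite strand (38.2 FPKM in wild-type and 36 in S87L MEF). Foxm1, the transcription factor of the G2/M genes, had 18.2, 18.4 and 18.7 against 16.6 and 16.8 FPKM (-0.13, limma adjusted p = 0.0833). Rrm1, the large subunit of ribonucleotide reductase, had 26.2, 25.8 and 25.9 against 24.1 and 23.7 FPKM (-0.12, limma adjusted p = 0.0938). These 3 lay below the wild-type range but were not called. Limma-voom on recovered reads called Cdc20 and Rrm1 lower, and Cdc20 was also called without S87L MEF replicate 2. Rrm2, the small subunit of the same enzyme, had the opposite sign, with 47.7, 45.3 and 45.7 against 50.7 and 48.0 FPKM (0.09, limma adjusted p = 0.234). Mki67 had 44.0, 44.8 and 48.7 FPKM in wild-type MEF and 48.0 and 40.4 in S87L MEF, overlapping groups. Top2a, the decatenating topoisomerase, had 38.6 to 40.3 and 36.9 and 39.8 FPKM, Cdk1 18.4 to 19.3 and 18.7 and 19.4, and Ccnb1 22.0 to 23.4 and 23.4 and 24.0. Over the 35 members not called, differences ran from -0.16 to 0.12, and 95% intervals reached from -0.35 (E2f1, 0.785-fold) to 0.26 (Ccne2, 1.2-fold). Each interval is for 1 gene and rests on the spread between 5 libraries, so the set does not bound a missed difference between genotypes. In the limma fit on log2(FPKM + 0.5) with all 5 libraries, 0 of the 11 members with CHR letters were called in MEF, with differences of -0.16 to 0.12. Cdc20 is the member at -0.16 and was called in the 2 other fits just given. Of the 22 members with a window but no CHR letters, 4 were called, and Aurkb had no window. With 11.2% of all genes tested called, 0 of 11 is no result about the members with CHR letters.

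**Figure D4:**
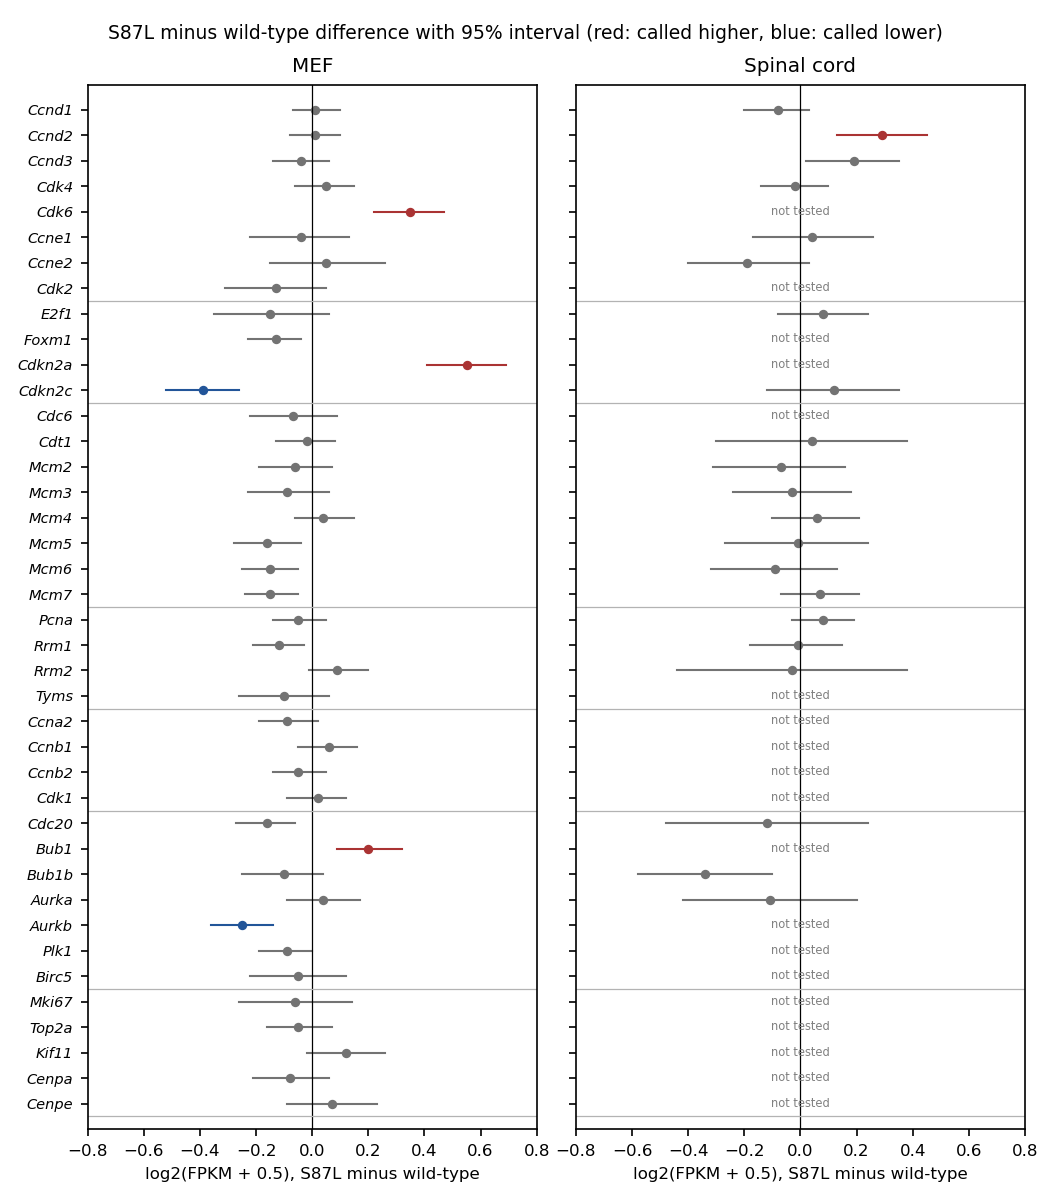
Difference between genotypes in log2(FPKM + 0.5), S87L minus wild-type, with its 95% interval, for each of the 40 genes in MEF (left) and spinal cord (right). Red marks a gene called higher and blue one called lower, and 19 genes too low in cord are marked as not tested.

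Fibroblast markers moved in the same libraries. Of 9 tested, 5 were lower in S87L MEF and 0 higher, and the 10 genes of the list summed to 3910 to 3930 FPKM in wild-type and 3380 to 3642 in S87L MEF. Macrophage markers summed to 81.2 to 82.5 and 70.3 to 77.5 FPKM, with 1 of 6 lower. Over all genes tested in MEF, 11.2% were called. Slc6a13, Mog, Opalin and Chat were listed at 0 in wild-type MEF, and red blood cell markers at 0 to 0.0305 FPKM. The part of these shifts in the cell cycle results was not tested.

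In spinal cord, 21 of 40 members had the mean of 0.5 FPKM needed for the test, and 1 was called. Ccnd2, a D-type cyclin, was higher in S87L cord, and no member was called lower. The background was 12.9% of 15648 genes called, 5.17% higher and 7.71% lower, against 4.76% of the 21 members called. At an unadjusted limma p under 0.05 there were 3 members (14.3%), Ccnd2, Ccnd3 and Bub1b, against 29.1% of all genes. Median ratio scaling moved the calls over all genes from 809 higher and 1207 lower to 1023 and 993, and Ccnd2 was the 1 member called there too. The median difference of the 21 was -0.01, against -0.02 over all genes.

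Ccnd2 had 5.41, 4.99 and 4.50 FPKM in wild-type cord and 5.94, 6.18 and 6.43 in S87L cord. The groups did not overlap, with means of 4.97 ± 0.456 (SD, n = 3) and 6.18 ± 0.245 (SD, n = 3). The difference was 0.29 on the log2(FPKM + 0.5) scale (SE 0.07, 95% interval 0.13 to 0.45, limma adjusted p = 0.0353). The call was lost without wild-type cord replicate 2 or 3 or any 1 of the S87L cord libraries, with adjusted p of up to 0.108, and it held without wild-type cord replicate 1 (0.0224). It was also lost with no filter on low values, without limma's trend and robust settings and with a replicate block. Over the 9 alternatives limma adjusted p was 0.00253 to 0.0779. An opposite-strand gene, 9330179D12Rik, overlaps it and had 1.22 FPKM in wild-type and 1.11 in S87L cord.

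Ccnd3, the third D-type cyclin, had 4.46, 3.98 and 3.91 FPKM in wild-type cord and 5, 4.91 and 4.38 in S87L cord, overlapping groups with a difference of 0.19 (limma adjusted p = 0.124). Ccnd1 had 13.4, 12 and 12.8 against 11.6, 12.3 and 12.1 FPKM (-0.08, limma adjusted p = 0.32). So the D-type cyclins differed in sign, and 1 of 3 passed the test. Limma-voom on recovered reads called Ccnd3 higher as well. Bub1b, the checkpoint protein BubR1, had 0.788, 0.775 and 0.767 FPKM in wild-type cord and 0.452, 0.597 and 0.489 in S87L cord. It lay lower without overlap, by -0.34 (SE 0.10, limma adjusted p = 0.0758), from 38 to 61 reads per library. Limma-voom on recovered reads and limma without trend and robust called Bub1b lower. Ccne2, a cyclin of G1/S, had 1.12, 1.43 and 1.25 against 0.989, 1.06 and 1.10 FPKM, also without overlap (-0.19, limma adjusted p = 0.23). Among the members tested, these 2 lay lower without overlap (9.52%) and Ccnd2 higher (4.76%), against 21.3% and 13.8% of all genes tested.

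The helicase genes and those of S phase synthesis showed no called difference in cord. Pcna had 21.1, 20.2 and 20.5 FPKM in wild-type and 21, 21.3 and 23.1 in S87L cord (0.08, 95% interval -0.03 to 0.19). The licensing genes tested ran from -0.09 (Mcm6) to 0.07 (Mcm7). Over the 20 tested members not called, 95% intervals reached from -0.58 (Bub1b, 0.669-fold) to 0.38 (Cdt1, 1.3-fold), wider than in MEF. The 19 members below the level needed rest on 0 to 90 reads per library and were not tested here. Among them, Mki67 had 0.423, 0.403 and 0.346 FPKM in wild-type cord and 0.455, 0.385 and 0.351 in S87L cord, and Top2a 0.235 to 0.39 and 0.264 to 0.291. Cdc6 had 0.0845, 0.0517 and 0.0522 against 0.0875, 0.168 and 0.164 FPKM, from 4 to 20 reads. The mitotic kinase and checkpoint genes together summed to 3.10 to 3.54 FPKM in wild-type and 2.57 to 2.83 in S87L cord, without overlap, but 4 of these 7 genes were not tested. The other 6 role sums overlapped between genotypes in cord.

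Markers of other cells moved in the S87L cord libraries. Skeletal muscle markers were higher for 8 of 8 genes and summed to 13.7 to 18.3 FPKM in wild-type and 70.4 to 75.1 in S87L cord. Fibroblast and meninges markers were higher for 6 of 10 genes (32.9 to 34.7 and 55.1 to 57.7 FPKM) and microglia markers for 3 of 5 tested (120.3 to 130 and 148 to 157). The microglia marker Cx3cr1 went the other way without overlap, with 11.3 to 11.8 against 10.4 to 10.6 FPKM, and was not called. Oligodendrocyte precursor markers, with 0 of 6 higher and 1 lower, summed to 208 to 239 and 225 to 268 FPKM. Ccnd2 itself had 136 to 141 FPKM in wild-type MEF, above its cord level. Other lists moved too. Oligodendrocyte markers lay lower without overlap for 5 of 5 genes, with 1 called (2619 to 2703 and 2374 to 2513 FPKM), and 2 of 4 ependyma markers were called lower (19 to 22.9 and 17.3 to 21.2). The other 2 ependyma markers had positive differences and were not called. Red blood cell markers summed to 277 to 303 and 330.5 to 367 FPKM, with 1 of 4 called higher, and endothelial markers to 32.5 to 36.8 and 29 to 32.6, with 1 of 5 called lower. Another 2 endothelial markers lay higher without overlap and were not called. Neuron and astrocyte markers each had 1 of 5 called lower. Over all genes tested in cord, 12.9% were called. The part of these cells in the Ccnd2 difference was not tested.

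Whether the genotype difference itself differed between MEF and cord was tested with the interaction term over all 11 libraries. Of the 15811 genes tested, 13.1% were called, 6.14% higher and 6.98% lower. Of the 40 members, 19 were too low to test in cord and entered this fit through their MEF level. Their cord side rests on 0 to 90 reads per library, so their term cannot be read as a difference between tissues. For some it departed from the MEF difference, as for Cdc6 (-0.25 against -0.07 in MEF) and Foxm1 (0.06 against -0.13). Of the 21 members tested in both tissues, 1 was called, Cdkn2c. For Cdkn2c the MEF difference minus the cord difference was -0.50 (SE 0.10, limma adjusted p = 0.0081). In cord the gene had 0.863, 0.856 and 0.737 FPKM in wild-type and 1.02, 0.951 and 0.817 in S87L, a difference of 0.12 with a 95% interval of -0.12 to 0.35. Cdkn2a is among the 19, with 0 to 3 reads per cord library, and its term of 0.63 (SE 0.14, limma adjusted p = 0.016) restates the MEF difference. Among the members tested in both tissues, Ccnd2 (-0.28, limma adjusted p = 0.0518) and Mcm7 (-0.22, limma adjusted p = 0.0612) were not called. The Ccnd2 term was called at a mean of 1 FPKM, with quantile or median ratio scaling, with limma-voom and without wild-type cord replicate 1. Quantile normalization also called Mcm7 and Ccnd3. Ccnd3 was called with limma-voom and without wild-type cord replicate 1 or S87L cord replicate 3 too. For Ccnd2 the levels in MEF were 141, 139 and 136 FPKM in wild-type and 139 and 141 in S87L.

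Beyond the 40, 125 other genes of the pathway were listed, among them the other CDK inhibitors. Cdkn1a, the p53-responsive inhibitor p21, had 18.3, 16.7 and 16.6 FPKM in wild-type cord and 33.3, 34.9 and 32.9 in S87L cord, and rose by 0.95 (SE 0.05, limma adjusted p = 8.71e-05). In MEF it had 75.8, 72.8 and 73.2 against 85.9 and 91.8 FPKM, and rose by 0.26 (SE 0.04, limma adjusted p = 0.0168). The groups did not overlap in either tissue. The cord call held without each library. The MEF call was lost without any 1 wild-type MEF library, with adjusted p of up to 0.081. The interaction term was -0.69 (SE 0.07, limma adjusted p = 0.000147), so the rise was larger in cord.

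Cdkn2b, which encodes p15Ink4b beside Cdkn2a at chr4:89306299-89311039, had 41.0, 38.2 and 40.6 FPKM in wild-type MEF and 51.7 and 52.2 in S87L MEF. It rose by 0.38 (SE 0.04, limma adjusted p = 0.00495), as its neighbour did, and the call held without each library (up to 0.0261). In cord it had 0.366 to 0.732 FPKM over both genotypes and was not called. Cdkn1c, the imprinted inhibitor p57, had 79.6, 78.8 and 84.6 FPKM in wild-type MEF and 54.3 and 60.2 in S87L MEF, and fell by 0.50 (SE 0.06, limma adjusted p = 0.00477). In cord it had 18.2, 16.7 and 16.3 against 12.8, 15.1 and 12 FPKM, and fell by 0.35 (SE 0.08, limma adjusted p = 0.0354). Both groups were lower without overlap. The cord call was lost without any 1 library other than S87L cord replicate 2, with adjusted p of up to 0.114. The inhibitors Cdkn1b (p27) and Cdkn2d (p19Ink4d), shown to complete the family, were not called in either tissue. Their differences were 0.14 and 0.03 in cord and -0.12 and -0.07 in MEF.

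**Figure D5:**
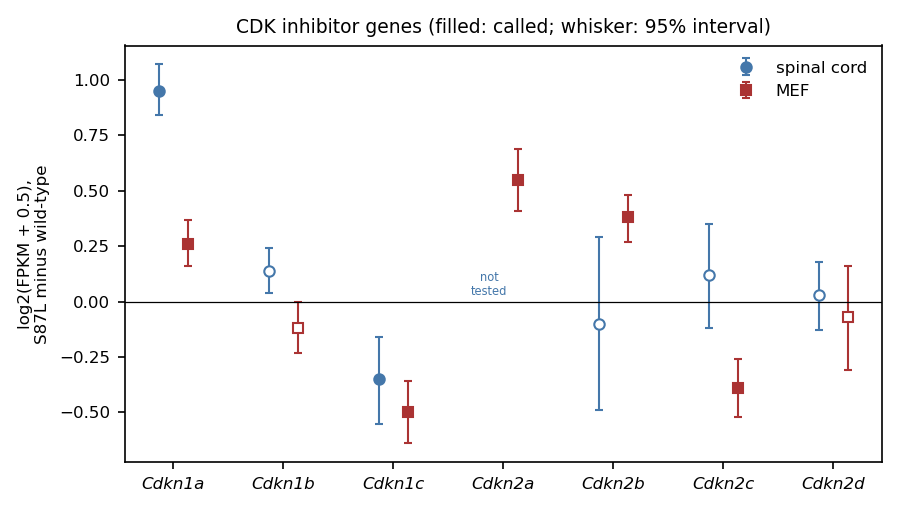
Difference between genotypes in log2(FPKM + 0.5), S87L minus wild-type, for the 7 CDK inhibitor genes in spinal cord (circles) and MEF (squares), with 95% intervals. Filled symbols are called; in MEF Cdkn1a, Cdkn2a and Cdkn2b are higher and Cdkn1c and Cdkn2c lower, and Cdkn2a was not tested in cord.

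Over the 3 lists of other pathway genes the counts below stand beside 12.9% of all genes called in cord and 11.2% in MEF. Other G1/S regulators gave 3 higher and 1 lower of 20 tested in cord (20%), and 2 higher and 1 lower of 25 in MEF (12%), with medians of 0 and 0.05. Besides Cdkn1a, the genes higher in cord were Lin52, a MuvB subunit, at 9.77 ± 0.548 against 11.5 ± 0.269 FPKM (SD, n = 3 each), and Rbl2, the pocket protein p130, at 10.7 ± 0.427 against 12.2 ± 0.0936. Their differences were 0.22 (limma adjusted p = 0.0292) and 0.18 (limma adjusted p = 0.0343). Without single libraries adjusted p reached 0.0962 for Lin52, whose call held only without wild-type cord replicate 3, and 0.116 for Rbl2, whose call was lost without any 1 of the 6.

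Other replication genes gave 0 higher and 1 lower of 31 tested in cord (3.23%), and 0 higher and 3 lower of 40 in MEF (7.5%), with medians of 0.01 and -0.05. The gene lower in cord was Cdc7, the kinase that fires origins, with 3.12, 2.83 and 3.36 FPKM in wild-type and 2.15, 2.2 and 2.2 in S87L cord. It fell by 0.42 (SE 0.07, limma adjusted p = 0.00987), with no overlap, and the call held without each library. In MEF it had 3.28 to 3.59 against 2.75 and 3.01 FPKM and was not called (-0.20, limma adjusted p = 0.143). The genes lower in MEF were Rpa2, a single-strand binding subunit, by -0.31 (limma adjusted p = 0.0211), Uhrf1, which recruits maintenance methylation, by -0.21 (limma adjusted p = 0.0312), and Lig1, the ligase of Okazaki fragments, by -0.28 (limma adjusted p = 0.0349). All 3 calls were lost when certain single libraries were left out: any 1 of the 5 for Uhrf1 (up to 0.104), and any 1 other than S87L MEF replicate 2 for Rpa2 (up to 0.0735) and Lig1 (up to 0.109).

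Other mitosis genes gave 1 higher and 1 lower of 19 tested in cord (10.5%), and 1 higher and 5 lower of 60 in MEF (10%), with medians of 0.02 and -0.06. Cdc25b, the phosphatase that activates CDK1 at mitotic entry, was lower in both tissues. It had 15.4, 14.6 and 14.8 FPKM in wild-type MEF and 10.1 and 10.9 in S87L MEF, and fell by 0.49 (SE 0.05, limma adjusted p = 0.00346), a call that held without each library. In cord it had 1.67, 1.32 and 1.5 against 1.04, 1.12 and 1.09 FPKM, and fell by 0.33 (SE 0.09, limma adjusted p = 0.0494). That call was lost without any 1 library other than wild-type cord replicate 2, with adjusted p of up to 0.141. Hjurp, the chaperone that deposits the CENP-A histone, had 26.9 to 27.7 FPKM in wild-type MEF and 23.2 and 23.3 in S87L MEF (-0.22, limma adjusted p = 0.0189). Cenpm, a kinetochore protein, had 6.33 to 7.08 against 4.44 and 5.22 FPKM (-0.42, limma adjusted p = 0.026). Cenpa itself was not called in MEF, with 10 to 10.9 against 9.57 and 10.1 FPKM. Ttk, the checkpoint kinase MPS1, was higher like Bub1, with 4.05 to 4.31 against 4.99 and 5.02 FPKM (0.25, limma adjusted p = 0.0444). The calls of Hjurp (without any 1 wild-type MEF library, up to 0.0789), Cenpm (any 1 other than S87L MEF replicate 2, up to 0.0853) and Ttk (any 1 of the 5, up to 0.137) were lost. The gene higher in cord was Anln, which encodes anillin of the cleavage furrow and is also expressed by myelinating oligodendrocytes, with 36.6, 39.0 and 38.8 against 42.8, 44.0 and 45.0 FPKM (0.20, limma adjusted p = 0.0183). Its call was lost without wild-type cord replicate 3 or S87L cord replicate 2 or 3, with adjusted p of up to 0.0747.

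Some of these calls on the other pathway genes also depended on the fit. With no filter on low values, Rbl2, Lin52, Cdkn1c and Cdc25b in cord and Rpa2, Lig1, Uhrf1, Ttk and Cenpm in MEF were not called. Without limma's trend and robust settings, Rbl2 and Cdkn1c in cord and Lig1, Uhrf1, Cdkn1a, Ttk, Cenpm and Hjurp in MEF were not called. Quantile normalization ended the cord calls of Anln and Cdc25b, and median ratio scaling or a pseudocount of 1 that of Cdc25b. The cord calls of Cdkn1a and Cdc7 held in each of these settings, as did the MEF calls of Cdkn2b, Cdkn1c and Cdc25b, but those 3 MEF calls were lost with a replicate block (limma adjusted p of 0.0757, 0.0636 and 0.0629). The block also ended the MEF calls of Rpa2, Lig1, Uhrf1, Cdkn1a, Ttk, Cenpm and Hjurp and the cord calls of Rbl2 and Cdc25b.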

How the data were processed

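The authors deposited 1 table of FPKM values for 11 libraries. The submitters' processing notes name build GRCm38, HTSeq 0.11.3, HISAT2 2.2.1, Trimmomatic 0.39 and Picard 2.25.5, with no roles. Annotation and strand setting: not given in the sources used here. Per the labels' protocols RNA was taken with TRIzol and libraries made with a directional NEBNext Ultra II kit. Symbols matched 55141 of 55487 identifiers, and GENCODE M21 gave coordinates and lengths. Groups came from the library titles. Values were tested as log2(FPKM + 0.5) with limma 3.58.1 in R 4.3.3 (trend, robust), over genes with a mean of at least 0.5 FPKM in the libraries fitted, with Benjamini-Hochberg adjustment over all genes tested; differences on this scale understate changes of low genes. SE are moderated. The script was tested on simulated data. There the false share of MEF calls exceeded the threshold, so adjusted p in MEF may be too small, and small differences were mostly missed. Dividing FPKM by its step gave whole reads, within 0.05, for 98.5% to 98.6% of values. These set the depth and an added alternative, limma-voom, chosen after seeing the data.

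The members, lists, promoter letters and tests were chosen with earlier results of these data known. All 40 members may be named, and of the other lists at most the 3 called genes of smallest p per direction in a comparison. Incenp is named besides these as a partner of Aurkb. Alternatives were pseudocounts of 0.1 and 1, no filter, a mean of 1 FPKM, quantile and median ratio scaling, limma without trend and robust, a replicate block and leaving out each library.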

Additional observations from a re-analysis of the deposited data

Results flagged for a closer look

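For 6 cell cycle genes the interaction term of the limma fit of all 11 libraries was called, the difference between genotypes in MEF against that in spinal cord (MEF difference minus cord difference, log2(FPKM + 0.5)). Among the 40 genes these were Cdkn2a (0.63, limma adjusted p = 0.016), whose cord side is fixed near 0 by its 0 to 3 reads so that the term restates the MEF difference, and Cdkn2c (-0.50, limma adjusted p = 0.0081). Cdkn2c was called without each of the 11 libraries and under all 9 alternatives, with adjusted p of up to 0.0465. The Cdkn2a term was not called without S87L MEF replicate 2 (0.0606), with a pseudocount of 0.1, with the replicate block or with limma-voom on recovered reads, where adjusted p reached 0.517.

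Among other G1/S regulators, Cdkn1a was -0.69 (limma adjusted p = 0.000147) and held in every setting run, up to 0.0115. Lin52 was -0.35 (limma adjusted p = 0.0181), with 2.01 to 2.19 FPKM in wild-type and 1.79 and 1.99 in S87L MEF against higher values in S87L cord, and was not called without S87L MEF replicate 1 (0.0729) or with limma-voom (0.0875). Cdkn1b was -0.25 (limma adjusted p = 0.0231), with 14 to 15.1 and 15.6 to 16 FPKM in wild-type and S87L cord and 16.3 to 16.8 and 14.7 and 15.8 in MEF. Its adjusted p reached 0.0732 when single libraries were left out, and the call was lost for 6 of 11 libraries and with the replicate block. Rb1, which encodes the retinoblastoma protein, was 0.35 (limma adjusted p = 0.041), with 2.63 to 2.77 FPKM in wild-type and 3.23 and 3.67 in S87L MEF. It was lost for 9 of 11 libraries left out, up to 0.151, and with no filter, quantile normalization, median ratio scaling or the replicate block, up to 0.0818.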

How the results depend on the processing

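No value changed sign past the test in any alternative. Counts of members called were 40 for wild-type MEF against cord in every setting. In cord the count of 1 became 0 with no filter or with a replicate block, and was 0 to 1 without single libraries. With limma-voom it became 3, with Ccnd3 and Bub1b added. Limma without trend and robust called Bub1b in place of Ccnd2. In MEF the count of 5 became 3 with no filter or without trend and robust, 0 with a replicate block and 10 with limma-voom (3 higher, 7 lower; Cdc20, Mcm5, Mcm6, Mcm7 and Rrm1 added), and was 2 to 8 without single libraries, highest without S87L MEF replicate 2, where Cdc20, E2f1, Mcm5, Mcm6 and Mcm7 were added and Bub1 and Aurkb lost. The interaction count of 2 became 1 with a pseudocount of 0.1 or a replicate block, 4 at a mean of 1 FPKM and 5 after quantile normalization, and was 1 to 4 without single libraries. All genes called went from 1547 to 788 (no filter), 182 (replicate block) and 2778 (limma-voom) in MEF, with 565 to 1753 without single libraries. They were 838 to 1637 without single libraries in cord, where the count was 2016. For the interaction they went from 2075 to 1030 with the replicate block and were 1373 to 2261 without single libraries. The cause of these shifts was not tested.

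Whether the replicate numbers pair the libraries is not settled. Same-numbered deviations correlated at 0.15, -0.05 and 0.11 in cord, where differently numbered ones ran from -0.2 to 0.09. They correlated at -0.07 and -0.03 in MEF and at 0.02, -0.01 and -0.03 between wild-type tissues. The deviations of the 2 S87L MEF libraries from their own mean mirror each other, so the MEF values cannot decide this. With the replicate block, adjusted p was 0.0569 for Cdkn2a, 0.0962 for Cdkn2c and 0.114 for Cdk6 in MEF, and genes called were 1663 in cord and 13958 between tissues. Depth limits the 19 low members in cord.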
